A study of Homo sapiens with 6 samples.

Results

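The 9 genes described here encode the mitochondrial arginase ARG2 and the core of polyamine metabolism: the synthesis enzymes ODC1, AMD1, SRM and SMS, the catabolic enzyme SAT1, the antizyme inhibitor AZIN1 and the antizymes OAZ1 and OAZ2. They were chosen by gene symbol, with earlier results of these data known. All 9 were measured, on 28 of 49293 probe sets, and each was represented among 19040 genes by its probe set with the highest mean. AN3-CA, a human endometrial cancer cell line, was grown in dishes for 24 h and then kept without serum for 18 h under 3 conditions, with 2 dishes each, labelled as biological replicates. The first group received a DMSO control and no growth factor. The second received 0.5% DMSO and 10 ng/mL aFGF (acidic fibroblast growth factor), and the third 300 nM AZD4547, which inhibits FGF receptor kinases, with the same dose of aFGF. AZD4547 without aFGF was not among the groups, and the labels do not give the DMSO content of the AZD4547 cultures. All values come from 1 cell line, so p-values measure the spread between dishes.

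Of the markers of the cell type, HOXA10 and HOXA11 (endometrial and Muellerian) and the mesenchymal markers VIM and ZEB1 had mean log2 intensities of 7.05, 5.38, 12.2 and 7.56. ESR1 stood at 3.23 and KRT18 at 4.27, while EPCAM, CDH1, KRT8, KRT19, PAX8, PGR and the mesenchymal CDH2 lay below the array medians (2.84 to 2.89 on the log2 scale) on all 6 arrays. The fibroblast list had COL1A2 at 9.70, COL3A1 above the medians on 4 of 6 arrays, and COL1A1, DCN and LUM below them. All 3 endothelial and all 4 leukocyte markers lay below them, and so did ARG1 (0.43), the arginase of liver and myeloid cells. In bulk RNA, fewer cells of a type and less RNA per cell cannot be told apart.

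Arginase splits arginine into urea and ornithine. ODC1, ornithine decarboxylase, turns ornithine into putrescine, and AMD1 makes the decarboxylated S-adenosylmethionine from which SRM and SMS add aminopropyl groups to form spermidine and then spermine. SAT1 acetylates spermidine and spermine, which opens their breakdown and export. Antizymes bind ODC1, direct it to the proteasome and lower polyamine uptake, and AZIN1, an inactive relative of ODC1, binds antizyme in its place. Antizyme is made by a polyamine-dependent ribosomal frameshift, and AMD1 and ODC1 are also controlled in translation and turnover, so transcript levels are only 1 layer of the regulation. ODC1 is a textbook target of MYC, and growing cells are known for high polyamine synthesis.

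Promoter windows are shown for the 4 genes with the clearest changes below, ARG2, SRM, ODC1 and OAZ2. Each runs from 250 bases before to 50 after a transcript start, 5′ to 3′ on the strand of the gene, in RefSeq's GRCh38.p14. The ARG2 window is chr14:67619670-67619969 on the plus strand. The others lie on the minus strand, at chr1:11059969-11060268 for SRM, chr2:10447963-10448262 for ODC1 and chr15:64703232-64703531 for OAZ2. ODC1 has a second listed start, whose window (chr2:10448278-10448577) lies upstream of the printed one and is not printed. Which start these cells use was not tested. Capitals mark matches to any of 4 motifs, searched on both strands.
ARG2: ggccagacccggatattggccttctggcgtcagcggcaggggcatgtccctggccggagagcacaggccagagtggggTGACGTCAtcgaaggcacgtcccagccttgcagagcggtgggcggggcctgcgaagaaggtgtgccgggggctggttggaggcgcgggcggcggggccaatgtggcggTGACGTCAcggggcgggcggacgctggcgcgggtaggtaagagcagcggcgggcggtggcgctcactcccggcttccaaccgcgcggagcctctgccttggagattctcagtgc
SRM: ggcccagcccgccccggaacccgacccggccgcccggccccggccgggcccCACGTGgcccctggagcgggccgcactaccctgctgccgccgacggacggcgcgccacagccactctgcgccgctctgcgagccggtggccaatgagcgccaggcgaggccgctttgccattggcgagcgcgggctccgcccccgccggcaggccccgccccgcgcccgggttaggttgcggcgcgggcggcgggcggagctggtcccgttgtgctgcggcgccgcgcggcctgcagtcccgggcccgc
ODC1: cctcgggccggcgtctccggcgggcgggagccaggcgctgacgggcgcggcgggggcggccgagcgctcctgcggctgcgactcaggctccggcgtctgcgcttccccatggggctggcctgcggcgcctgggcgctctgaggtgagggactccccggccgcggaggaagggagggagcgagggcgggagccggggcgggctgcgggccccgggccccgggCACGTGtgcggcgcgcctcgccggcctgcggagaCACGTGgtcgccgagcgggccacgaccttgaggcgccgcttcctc
OAZ2: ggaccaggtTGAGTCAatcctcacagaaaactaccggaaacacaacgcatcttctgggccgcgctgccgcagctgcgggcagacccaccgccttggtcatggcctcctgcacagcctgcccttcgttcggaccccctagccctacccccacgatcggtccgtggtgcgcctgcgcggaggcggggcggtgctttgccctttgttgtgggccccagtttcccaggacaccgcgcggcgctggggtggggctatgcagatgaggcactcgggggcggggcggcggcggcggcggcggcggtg
The E-box CACGTG, which MYC with MAX can bind, was found in 2548 (7.26%) of 35116 windows in the RefSeq promoter table. Among 11 windows of 8 of the 9 genes, it was in the window of SRM (bases -199 to -194 from the start) and in the printed window of ODC1, at -29 to -24 and at 6 to 11. TGANTCA, the AP-1 site, was in 7.71% of all windows and in that of OAZ2 (-241 to -235). GTAAACA, a forkhead site, was in 3.42% of all windows and in 0 of the 11. TGACGTC, a cyclic AMP response element core, was in 3.45% of all windows. This motif was added after the ARG2 window had been read, which holds the overlapping form TGACGTCA at -172 to -165 and at -64 to -57. The ODC1 window that is not printed held TGACGTC at -178 to -172 and no CACGTG. Both CACGTG matches of the printed window lie downstream of that other start. These are matches of letters, not shown to be bound.

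With aFGF, ARG2 and OAZ2 fell and SRM rose. A gene was called at a limma adjusted p (Benjamini-Hochberg over 19040 genes) under 0.05, and by this rule 1 of the 9 genes rose and 2 fell, where 15.6% of all genes were called. AZD4547 given with aFGF, against aFGF alone, raised ARG2, OAZ1 and OAZ2 and lowered ODC1, SRM, SMS and SAT1, so 7 of 9 were called, where 25.7% of all genes were. Against DMSO, the cultures with AZD4547 and aFGF had lower SRM and higher OAZ2, 2 of 9 called where 4.68% of all genes were. The 2 groups compared did not overlap for 7, 8 and 6 of the 9 genes in the 3 comparisons, where 50.5%, 60.6% and 44.8% of all genes did not. Because the 9 genes were chosen with earlier results of these data known, these counts are descriptions and no test against all genes. The median log2 fold changes of the 9 genes were 0.06, -0.14 and -0.04 in this order, beside -0.01, -0.02 and -0.01 over all genes. The median absolute changes were 0.15, 0.19 and 0.13, beside 0.12, 0.16 and 0.11. The first comparison and the second share the aFGF arrays, and the third shares its arrays with both, so opposite signs in the first pair are not independent. SMS, SAT1 and OAZ1 were near the threshold, and in the second comparison 4 of the 9 genes (ARG2, ODC1, SRM and OAZ2) kept their calls in all 17 alternative settings. The 17 include a rerun on an identical second copy of the deposited values, which could not change a call. In the authors' deposited table, whose test is not stated, the representing probe sets with an unadjusted p under 0.05 had ratios of aFGF to DMSO of 0.368 for ARG2 (p = 0.0011), 1.21 for SRM (p = 0.0072), 0.768 for OAZ2 (p = 0.022) and 1.08 for SAT1 (p = 0.042). Among the other probe sets in the authors' deposited table, OAZ1 also passed on 2, with ratios of 0.894 (p = 0.0091) and 0.914 (p = 0.035). For AZD4547 with aFGF to DMSO, the authors' deposited table gave ratios of 0.725 for SRM (p = 0.0047) and 1.25 for OAZ2 (p = 0.016) on the representing probe sets. There the second ARG2 probe set in the authors' deposited table had a ratio of 1.26 (p = 0.0053).

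**Figure D1:**
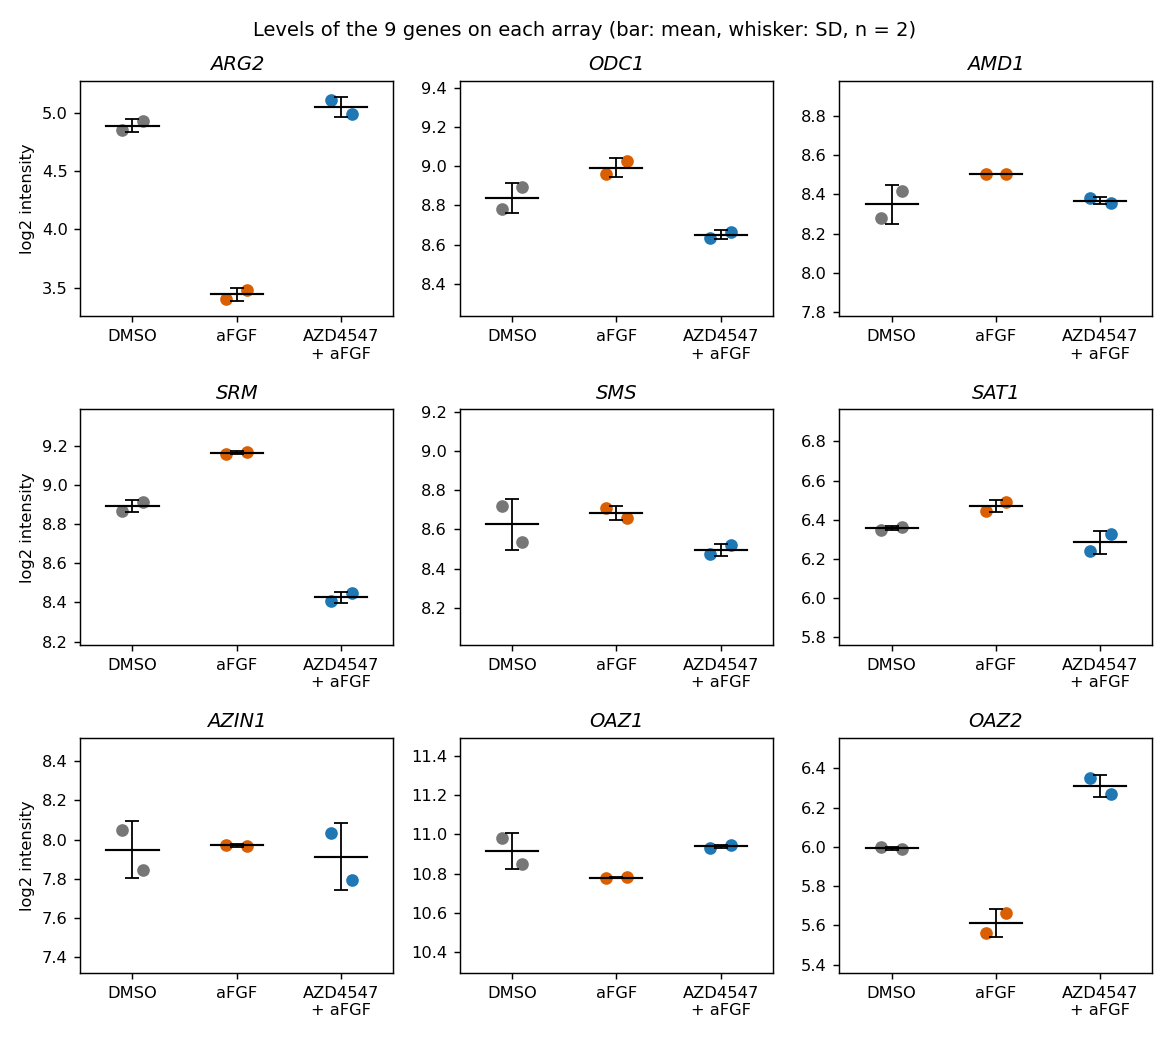
Log2 intensity of each gene (vertical axes, each with its own range) on every array, by group (horizontal axes); points are arrays, bars means and whiskers SD (n = 2). ARG2 and OAZ2 are lowest with aFGF, SRM and ODC1 are highest with aFGF and lowest with AZD4547 and aFGF, and AZIN1 overlaps across all 3 groups.

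ARG2 (14q24.1), the mitochondrial arginase, had the largest changes of the 9 genes in the first 2 comparisons, but not against DMSO with AZD4547 and aFGF. Its log2 intensity was 4.85 and 4.93 in the DMSO cultures, 3.40 and 3.48 with aFGF, and 5.11 and 4.99 with AZD4547 and aFGF. The aFGF cultures were lowest, far below both other groups, and the AZD4547 cultures lay just above the DMSO cultures without overlap. The transcript was 2.72-fold lower with aFGF than with DMSO (log2 -1.44, SE 0.09, limma adjusted p = 1.2e-06), the 5th most negative change of the 19040 genes. It was 3.04-fold higher with AZD4547 and aFGF than with aFGF alone (log2 1.61, SE 0.09, limma adjusted p = 2.5e-07), the 14th highest change. The aFGF values lay near the median level of all genes (3.42). With a pseudocount of 8 the 2 changes were -0.99 and 1.12, so their size depends on how low intensities are treated. Against DMSO the difference was 0.16 on the log2 scale (95% interval -0.03 to 0.36, limma adjusted p = 0.36), an interval that holds both no difference and an excess of up to 0.36.

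The second ARG2 probe set read 3.94 and 3.93 in DMSO, 2.61 and 2.52 with aFGF, and 4.30 and 4.25 with AZD4547 and aFGF. The groups did not overlap, in the same order as above. Its aFGF values were under the medians of their arrays. Without detection calls, how far they lay above background is not known, and both its log2 changes (-1.37 and 1.71) are uncertain in size. In a fit over all probe sets both changes were called for both ARG2 probe sets, while the differences from DMSO with AZD4547 and aFGF, 0.16 and 0.34, were not (limma adjusted p = 0.43 and 0.12).

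SRM (1p36-p22), spermidine synthase, had log2 intensities of 8.87 and 8.91 in DMSO, 9.16 and 9.17 with aFGF, and 8.41 and 8.45 with AZD4547 and aFGF. The 3 groups were fully apart, highest with aFGF and lowest with the inhibitor. SRM rose 1.21-fold with aFGF (log2 0.27, SE 0.05, limma adjusted p = 0.0023) and was 1.67-fold lower with AZD4547 and aFGF than with aFGF alone (log2 -0.74, SE 0.05, limma adjusted p = 8.9e-07). Against DMSO, SRM was 1.38-fold lower in the cultures with AZD4547 and aFGF (log2 -0.46, SE 0.05, limma adjusted p = 0.00068). Its second probe set gave 0.27, -0.78 and -0.51 and was called in all 3 comparisons. The rise with aFGF lost its call without aFGF replicate 1 (limma adjusted p = 0.0504) or 2 (0.059) and without the intensity trend in the variance (0.071), and the fall below DMSO lost it without that trend (0.0999).

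ODC1 (2p25), ornithine decarboxylase, the first and rate-limiting enzyme of polyamine synthesis, read 8.78 and 8.89 in DMSO, 8.96 and 9.03 with aFGF, and 8.63 and 8.67 with AZD4547 and aFGF on its only probe set. The groups had the same order as for SRM and did not overlap, but lay closer together. With AZD4547 and aFGF ODC1 was 1.27-fold lower than with aFGF alone (log2 -0.34, SE 0.05, limma adjusted p = 0.00053). The difference between aFGF and DMSO, 0.15 (95% interval 0.04 to 0.27), was not called (limma adjusted p = 0.078), nor was that between AZD4547 with aFGF and DMSO, -0.19 (95% interval -0.31 to -0.07, limma adjusted p = 0.072). The former passed the threshold without DMSO replicate 2 (log2 0.21, limma adjusted p = 0.012) and without dim genes (0.047), the latter without DMSO replicate 1 (log2 -0.24, limma adjusted p = 0.021) and without dim genes (0.043).

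MYC, the known regulator of ODC1 named above, is given for comparison. It read 8.20 and 7.93 in DMSO, 8.96 and 9.01 with aFGF, and 6.67 and 6.69 with AZD4547 and aFGF. Its groups were in the order seen for SRM and ODC1, highest with aFGF and lowest with the inhibitor. The group means of SAT1, SLC7A1, SLC3A2 and DOHH, all described below, had this order too, among others. The share of all genes with this order was not counted. Its log2 differences were 0.92, -2.30 and -1.38 in the 3 comparisons, each called. A link between MYC and SRM or ODC1 was not tested.

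AMD1 (6q21), S-adenosylmethionine decarboxylase, read 8.28 and 8.42 in DMSO, 8.50 and 8.51 with aFGF, and 8.38 and 8.36 with AZD4547 and aFGF. The aFGF cultures were highest, and the other groups overlapped. Neither the difference with aFGF (log2 0.16, 95% interval 0.03 to 0.28, limma adjusted p = 0.089) nor that between AZD4547 with aFGF and aFGF (-0.14, 95% interval -0.26 to -0.01, limma adjusted p = 0.10) was called. The former passed without DMSO replicate 2 (log2 0.23, limma adjusted p = 0.0061). The latter passed in a fit without the DMSO arrays (0.015), without DMSO replicate 1 (0.015) or 2 (0.016), and with the mean of all probe sets (log2 -0.19, limma adjusted p = 0.021). The 7 probe sets of AMD1 ranged from -0.03 to 0.30 with aFGF, 1 called, and from -0.29 to -0.11 with AZD4547 over aFGF, 3 called, all of them lower. Against DMSO they ranged from -0.22 to 0.02, with 0 called.

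SMS (Xp22.1), spermine synthase, read 8.72 and 8.54 in DMSO, 8.71 and 8.66 with aFGF, and 8.48 and 8.52 with AZD4547 and aFGF. The cultures with AZD4547 were lowest, and the DMSO cultures spanned those with aFGF. SMS was 1.14-fold lower with AZD4547 and aFGF than with aFGF alone (log2 -0.19, SE 0.06, limma adjusted p = 0.046). That call was lost without any 1 of the aFGF or AZD4547 arrays (limma adjusted p from 0.14 to 0.30), without the intensity trend (0.20), after quantile normalization (0.055) and on the other bright probe set, which does not end in _x_at (log2 -0.16, limma adjusted p = 0.094). With aFGF the difference was 0.06 (95% interval -0.08 to 0.19), and against DMSO -0.13 (95% interval -0.27 to 0.01), which passed without DMSO replicate 2 (log2 -0.22, limma adjusted p = 0.020). The remaining SMS probe set, at 0.22 to 0.94 on the log2 scale, was far below the array medians and is not interpreted. In the fit over all probe sets, 0 of the 3 SMS probe sets were called with AZD4547 over aFGF. There the representing one had a limma adjusted p of 0.062.

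SAT1 (Xp22.1), the acetyltransferase of polyamine breakdown, read 6.35 and 6.37 in DMSO, 6.45 and 6.49 with aFGF, and 6.24 and 6.33 with AZD4547 and aFGF. Its groups did not overlap and had the order of the synthesis enzymes SRM and ODC1, over a narrow range. It was 1.14-fold lower with AZD4547 and aFGF than with aFGF alone (log2 -0.18, SE 0.06, limma adjusted p = 0.046). The difference with aFGF was 0.11 (95% interval -0.02 to 0.25) and that from DMSO with AZD4547 and aFGF -0.07 (95% interval -0.21 to 0.06), neither called. The fall was lost without any 1 of the aFGF or AZD4547 arrays (limma adjusted p from 0.075 to 0.27), without the intensity trend (0.14) and after quantile normalization (0.060). Of its 3 probe sets 1 was called in that comparison in the fit over all probe sets, at -0.30, and the others stood at -0.18 and -0.04.

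OAZ2 (15q22.31), ornithine decarboxylase antizyme 2, changed in the direction opposite to SRM in all 3 comparisons. It read 6.00 and 5.99 in DMSO, 5.56 and 5.66 with aFGF, and 6.35 and 6.27 with AZD4547 and aFGF. The 3 groups were fully apart, lowest with aFGF and highest with the inhibitor. OAZ2 was 1.30-fold lower with aFGF (log2 -0.38, SE 0.07, limma adjusted p = 0.0025). Leaving out aFGF replicate 1 ended this call (log2 -0.33, limma adjusted p = 0.062). It was 1.62-fold higher with AZD4547 and aFGF than with aFGF alone (log2 0.70, SE 0.07, limma adjusted p = 1.7e-05). It lay 1.25-fold above DMSO (log2 0.32, SE 0.07, limma adjusted p = 0.023), a call lost without any 1 of the aFGF or AZD4547 arrays (limma adjusted p from 0.081 to 0.23), without the intensity trend (0.16) and with only the 2 groups in the fit (0.078). The second probe set gave -0.26, 0.62 and 0.35, of which the middle one was called.

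OAZ1 (19p13.3), antizyme 1, read 10.98 and 10.85 in DMSO, 10.78 and 10.78 with aFGF, and 10.93 and 10.94 with AZD4547 and aFGF. The aFGF cultures were lowest, and those with AZD4547 lay between the DMSO cultures. It was 1.12-fold higher with AZD4547 and aFGF than with aFGF alone (log2 0.16, SE 0.05, limma adjusted p = 0.034). The difference between aFGF and DMSO, -0.14 (95% interval -0.25 to -0.03), was not called (limma adjusted p = 0.094), but passed without DMSO replicate 2 (log2 -0.20, limma adjusted p = 0.0035), without dim genes (0.048) and with the mean of all probe sets (0.046). The difference from DMSO with AZD4547 and aFGF was 0.02 (95% interval -0.09 to 0.13). The rise with AZD4547 lost its call without any 1 of the aFGF or AZD4547 arrays (limma adjusted p from 0.15 to 0.21), without the intensity trend (0.22) and after median centring (0.14), and on the best probe set not ending in _x_at (0.066). All 6 OAZ1 probe sets lay between -0.18 and -0.13 with aFGF, 1 called, and between 0.09 and 0.17 with AZD4547 over aFGF, 3 called. The 3 called in the latter end in _x_at, the suffix of probes that can match other transcripts.

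AZIN1 (8q22.3), the antizyme inhibitor, read 8.05 and 7.85 in DMSO, 7.97 and 7.97 with aFGF, and 8.03 and 7.79 with AZD4547 and aFGF. On this probe set, the representing one, the groups overlapped. The replicates of DMSO and of AZD4547 with aFGF were further apart than any 2 group means. The differences were 0.02 (95% interval -0.16 to 0.20), -0.06 (-0.24 to 0.12) and -0.04 (-0.22 to 0.15) on the log2 scale. The second probe set gave 0.15, -0.09 and 0.05, and 0 of the 6 tests over both probe sets passed (limma; unadjusted values of the representing probe set 0.80, 0.51 and 0.68). On that second probe set the aFGF cultures (7.48 and 7.50) lay above both other groups without overlap. The intervals of the representing probe set leave room for changes as large as that of ODC1 with aFGF.

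**Figure D2:**
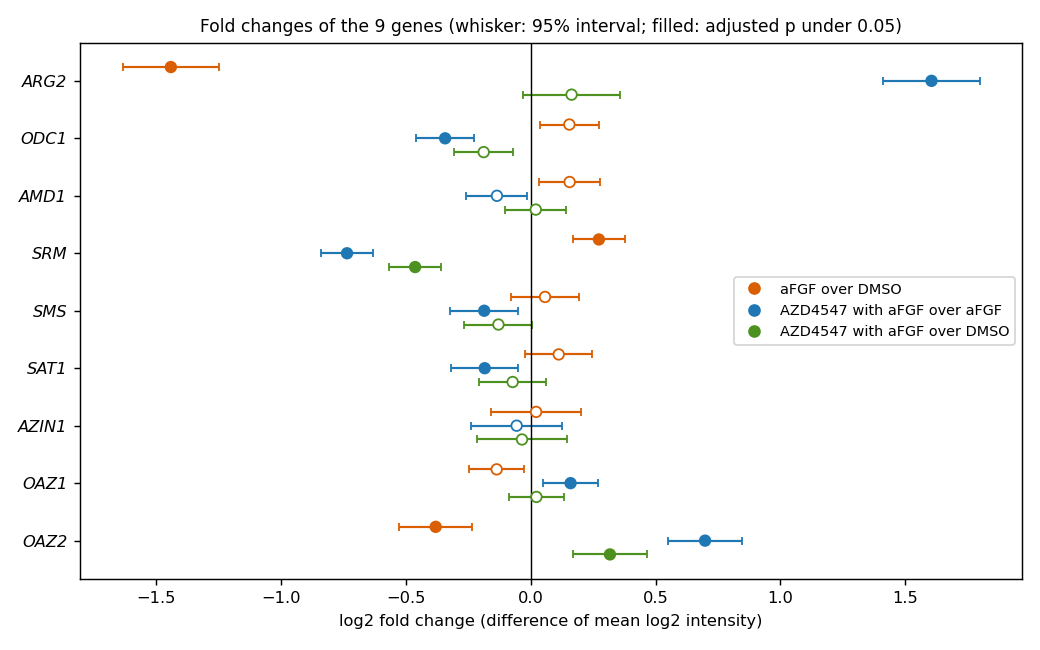
Log2 fold change of each gene (horizontal axis) in the 3 comparisons, with whiskers for the 95% interval and filled points for a limma adjusted p under 0.05. ARG2 and OAZ2 lie left of 0 with aFGF over DMSO and right of 0 with AZD4547 and aFGF over aFGF, and SRM does the opposite.

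Over all 28 probe sets, 3 were called higher and 4 lower with aFGF, where 11.4% of all probe sets were called. In the second comparison 7 were called higher and 7 lower, where 20.6% were. Against DMSO 1 was called higher, from OAZ2, and 2 lower, both from SRM, where 2.49% were. The 13 probe sets of the synthesis enzymes ODC1, AMD1, SRM and SMS had log2 fold changes above 0 in 12 cases with aFGF, with 3 called, and below 0 in all 13 with AZD4547 over aFGF, with 6 called. The 8 antizyme probe sets were below 0 in all 8 cases with aFGF, with 2 called, and above 0 in all 8 with AZD4547 over aFGF, with 5 called. The 13 include the dim SMS probe set that is not interpreted above. Without it, 11 of 12 were above 0 with aFGF and 12 of 12 below 0 with AZD4547 over aFGF, with the same numbers called. Probe sets of 1 gene measure the same transcripts, and both comparisons share the aFGF arrays, so these counts are descriptions. Against DMSO the synthesis enzymes had 2 probe sets above and 11 below 0 (10 below without the dim SMS probe set), with 2 called. The antizymes were mixed, with 5 above and 3 below 0 and 1 called.

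**Figure D3:**
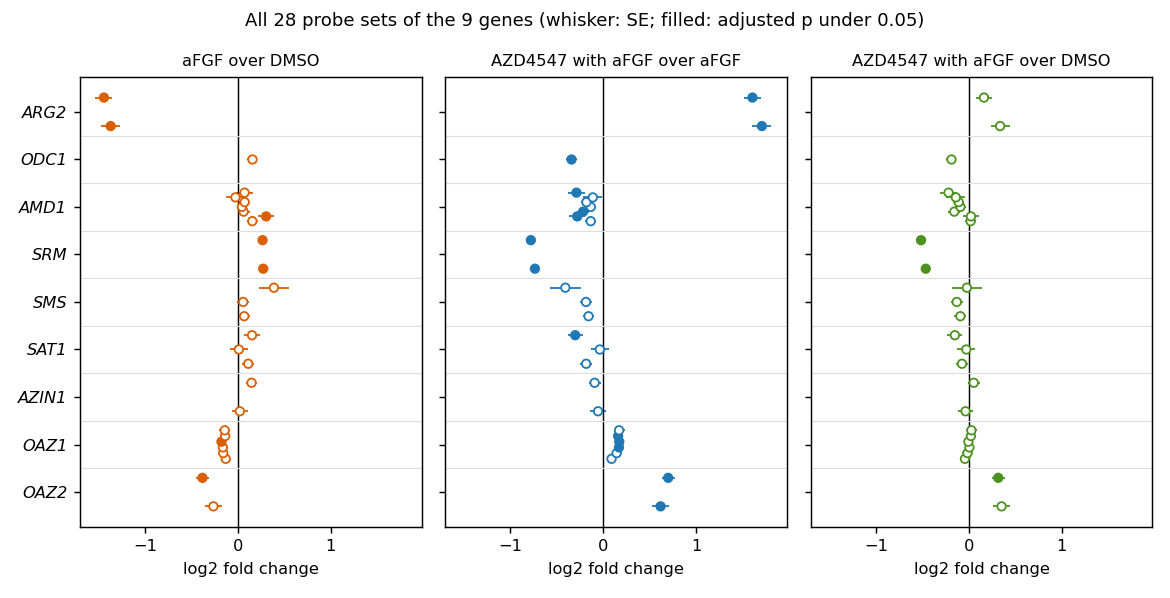
Log2 fold change (horizontal axes) of all 28 probe sets, by gene (vertical axis) and comparison (panels), with whiskers for the SE and filled points for a limma adjusted p under 0.05 over all probe sets. Probe sets of ARG2, SRM and OAZ2 lie close together within each comparison, and those of AMD1 range from -0.03 to 0.30 with aFGF.

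The genes most like ARG2 over the 6 arrays were sought among 895 genes with a mean above the median of all genes and an SD of at least 0.3. They were MIR1915HG, MACROH2A2, PIK3C2B, CHST14 and DHRS13, with Pearson's r from 0.9970 to 0.9980. All 5 were lower with aFGF, by 0.63 (CHST14) to 1.18 (DHRS13) on the log2 scale where ARG2 fell by 1.44. The genes most like ODC1 were LRFN4, CTU2, NPM3, CSRP1 and PVR, with r from 0.986 to 0.996. With AZD4547 over aFGF they lay between -0.72 (NPM3) and -0.92 (CSRP1), where ODC1 stood at -0.34. The SD limit of 0.3 held for the genes searched but not for ODC1, which lay below it. Their wider range was therefore set by the filter, and genes with changes as small as those of ODC1 could not be found. These values describe 6 arrays that fall into 3 treatment groups, which all genes share.

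Around the 9 genes, 52 further genes of arginine, proline, methionine and polyamine metabolism were followed in 6 role lists. The lists, too, were chosen with earlier results of these data known, so their counts are descriptions. With aFGF 5 of them rose and 10 fell, where 5.92% of all genes rose and 9.72% fell. With AZD4547 and aFGF over aFGF 10 rose and 14 fell, where 15.6% and 10.1% did. Of the 14, 1 polyamine transport gene was far below the array medians on all 6 arrays. Against DMSO 1 rose and 6 fell, where 2.28% and 2.41% did. The median log2 fold changes over the 52 genes were 0.02, -0.05 and -0.06. Of the genes named below, 5 of 13 called with aFGF and 11 of 15 called with AZD4547 over aFGF kept their calls in all 17 alternatives (SLC25A29, SLC7A1, ALDH4A1, SLC3A2 and ADI1 in the former). All 7 genes called against DMSO lost their calls without either AZD4547 array and without the intensity trend.

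Among 15 genes of arginine and ornithine supply, 1 rose and 2 fell with aFGF, 2 rose and 4 fell with AZD4547 over aFGF, and 0 rose and 3 fell against DMSO. SLC7A1, a plasma membrane carrier of arginine and other cationic amino acids, rose with aFGF (log2 0.58, SE 0.07) and was lower with AZD4547, both against aFGF (-1.17) and against DMSO (-0.59, or -0.38 with the mean of all probe sets). The mean log2 levels of SLC7A1 were 5.79 in DMSO, 6.36 with aFGF and 5.20 with AZD4547 and aFGF, highest with aFGF as for SRM. SLC25A29, a mitochondrial carrier of basic amino acids, went the other way, like ARG2 (-0.68 with aFGF and 0.72 with AZD4547 over aFGF). ASL, argininosuccinate lyase, fell with aFGF (-0.28), a call lost with the mean of all probe sets (-0.12, limma adjusted p = 0.36). SLC7A2, a relative of SLC7A1, and SLC25A15, the mitochondrial ornithine carrier, were below DMSO with AZD4547 and aFGF (-0.38 and -0.34). With the mean of all probe sets the value of SLC7A2 was -0.25 (limma adjusted p = 0.070) and that of SLC25A15 -0.08 (0.65).

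Of 8 genes that interconvert ornithine, glutamate and proline, 2 fell with aFGF and 0 rose. These were ALDH4A1, which oxidises pyrroline-5-carboxylate to glutamate (log2 -0.69, SE 0.07), and OAT, ornithine aminotransferase, which also uses ornithine (-0.42, SE 0.08). The 2 genes rose with AZD4547 over aFGF (1.08 and 0.59), where GLUD1, glutamate dehydrogenase, fell by 0.19. With the mean of all probe sets ALDH4A1 stood at -0.33 and 0.69 in the 2 comparisons, still called. The OAT levels were 8.36, 7.94 and 8.53 in DMSO, aFGF and AZD4547 with aFGF, lowest with aFGF as for ARG2. Against DMSO ALDH4A1 was higher (0.38) and PYCR1, which makes proline, lower (-0.38, and -0.18 with the mean of all probe sets, limma adjusted p = 0.092). The fall of OAT with aFGF lost its call without aFGF replicate 1 (limma adjusted p = 0.092).

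Another list holds 5 genes taken as polyamine enzymes and regulators outside the 9 genes, whose activity on polyamines was not measured. Of these, SAT2 fell with aFGF (log2 -0.20, SE 0.05, limma adjusted p = 0.025). OAZ3 rose with AZD4547 over aFGF (0.35, SE 0.10, limma adjusted p = 0.017). The OAZ3 call was lost without any 1 of the aFGF or AZD4547 arrays (0.068 to 0.11) and its value was 0.22 with a pseudocount of 8, and the SAT2 call in 7 of the alternatives. Against DMSO 0 of 5 were called (limma), and PAOX, a polyamine oxidase, had the largest difference (0.27, 95% interval -0.02 to 0.57). In the polyamine transport list 2 of 10 rose and 2 fell with aFGF, 2 rose and 3 fell with AZD4547 over aFGF, and 1 fell against DMSO. Of the 3 that fell, 1 stood at 0.39 to 0.95 on the log2 scale, far below the array medians, and is not interpreted. SLC3A2, the heavy chain of several amino acid exchangers, had values of 0.45, -0.73 and -0.29 in the 3 comparisons, each called. ATP13A2, a lysosomal polyamine exporter, fell with aFGF (-0.32) and rose with AZD4547 over aFGF (0.46, or 0.24 without _x_at probe sets), while ATP13A3, a related transporter, fell in the latter (-0.46). SLC47A1, an organic cation exporter, fell with aFGF (-0.30), a call lost with the mean of all probe sets (-0.10, limma adjusted p = 0.47).

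Among 10 genes of the methionine cycle and salvage, 1 rose and 3 fell with aFGF, 3 rose and 4 fell with AZD4547 over aFGF, and 1 fell against DMSO. MAT2A, which makes the S-adenosylmethionine that AMD1 uses, was lower with AZD4547 and aFGF than with aFGF (log2 -0.45, SE 0.06) and than with DMSO (-0.37, SE 0.06). MTAP, which cleaves the methylthioadenosine released by SRM and SMS, fell by 0.35 with AZD4547 over aFGF. ADI1, a dioxygenase of the salvage pathway, fell with aFGF (-0.50) and rose with AZD4547 over aFGF (0.59). MAT2B, the regulatory subunit, fell with aFGF (-0.25) and APIP, another salvage enzyme, rose (0.27). In the hypusine list, DHPS uses spermidine to modify EIF5A and DOHH hydroxylates the modified residue. DOHH rose with aFGF (0.47, SE 0.09) and fell with AZD4547 over aFGF (-0.71, SE 0.09). EIF5A fell in the latter too (-0.28), but not without _x_at probe sets (-0.17, limma adjusted p = 0.42). Against DMSO 0 of 4 were called (limma), with DOHH at -0.24 (95% interval -0.45 to -0.04).

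**Figure D4:**
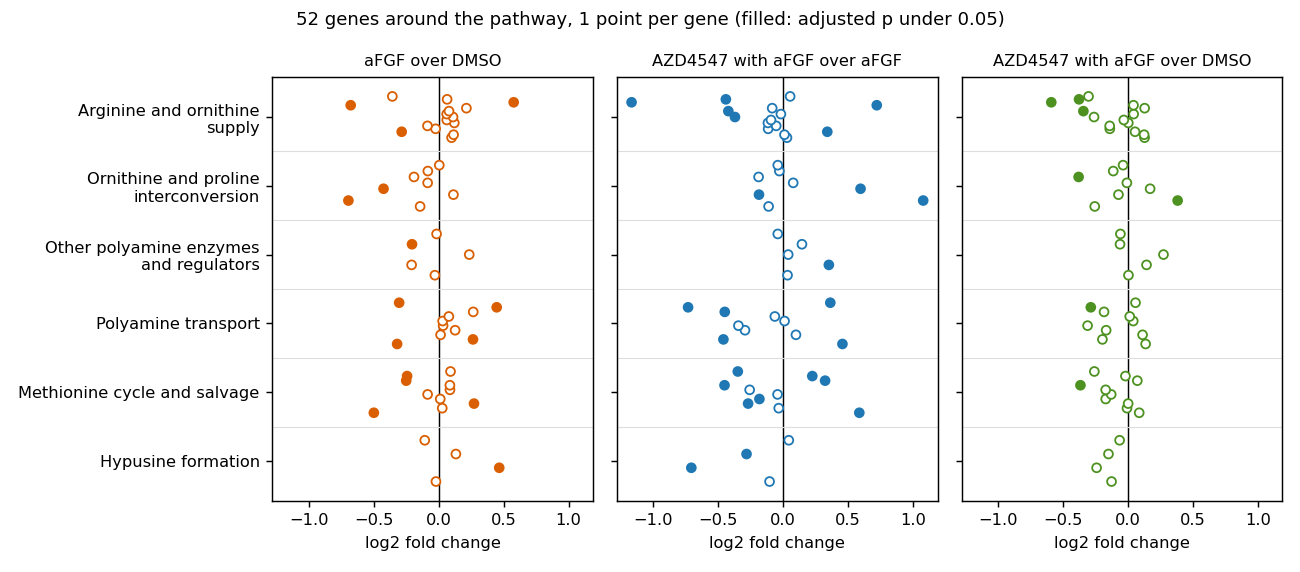
Log2 fold change (horizontal axes) of 52 genes around the pathway, by role list (vertical axis) and comparison (panels), 1 point per gene and filled points for a limma adjusted p under 0.05. With AZD4547 and aFGF over aFGF the called genes lie on both sides of 0, from SLC7A1 at -1.17 to ALDH4A1 at 1.08.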

How the data were processed

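RNA from 6 cultures was measured on Affymetrix arrays. Per the submitters' processing notes, the authors used RMA, with its version, array type and genome build not given in the sources used here. Intensity values, as deposited, are linear (0.75 to 6344.2), and log2 was taken with no pseudocount. The authors' deposited table also holds a ratio per probe set and a p-value of unstated test, quoted only as theirs. The 2 deposited tables hold the same values (largest difference 0).

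Symbols were updated through Entrez identifiers. Of 49293 probe sets, 47340 had 1 symbol, and each of 19040 genes was represented by the one with the highest mean log2 intensity. A linear model with a mean per group, over the 6 arrays, was run in limma 3.58.1 (R 4.3.3, eBayes with an intensity trend). Benjamini-Hochberg adjustment was made within each comparison. The fit was also run on simulated arrays with independent noise and fewer changed genes than were called here, which is no test of these calls. The number of arrays limits the precision. The table holds no detection calls. The fit over all probe sets was adjusted over all of them.

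The 9 genes and the lists were chosen with earlier results of these data known. The 9 genes are named throughout. Of each role list and comparison, up to 3 called genes with the largest changes are named, or the largest as a value, and 5 genes most like ARG2 and ODC1.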

Additional observations from a re-analysis of the deposited data

How the results depend on the processing

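Replicate correlations were 0.9966 (DMSO), 0.9973 (aFGF) and 0.9973 (AZD4547 with aFGF), and the DMSO cultures differed most (SD of log2 differences in the brighter probe sets 0.181, against 0.122 and 0.135). With 2 cultures a group, leaving out 1 moves many calls, and the lone culture left is assumed to vary as the other groups do. For aFGF over DMSO, 2979 genes were called (1489 without the intensity trend, 1147 to 3448 with 1 array left out), of the 9 genes 3 (5 without dim genes, 1 to 6 with 1 array left out, 1 without aFGF replicate 1 and 6 without DMSO replicate 2), and of 28 probe sets 7 (2 without the trend). For AZD4547 with aFGF over aFGF, 4894 genes were called (3046 to 5667 with 1 array left out), of the 9 genes 7 (4 without the trend, 4 to 8 with 1 array left out, 4 without any 1 aFGF or AZD4547 array), and of 28 probe sets 14 (7 without the trend). For AZD4547 with aFGF over DMSO, 892 genes were called (10 without the trend, 217 with only the 2 groups in the fit, 29 to 1556 with 1 array left out). Of the 9 genes 2 were called there (0 in limma without the trend, where 3 had an unadjusted p under 0.05; 1 with only the 2 groups; 1 to 3 with 1 array left out), and of 28 probe sets 3 (0 without the trend, 5 at an unadjusted p under 0.05). The cause was not tested.

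Signs turned in 10 of 459 values of the 9 genes under the alternatives, each for a difference that was not called. Many of the 459 could not turn. The fold changes of the 9 genes stay the same without the intensity trend, without dim genes, with only the 2 groups and with the replicate block. They also stay the same with the identical second copy of the deposited values, and without an array of the group not compared. With the mean of all probe sets, the differences from DMSO with AZD4547 and aFGF were -0.10 for AMD1, 0.0092 for AZIN1 and -0.00061 for OAZ1. With 1 array left out, the ranges that crossed 0 were -0.050 to 0.090 (AMD1), -0.16 to 0.085 (AZIN1) and -0.042 to 0.087 (OAZ1) in that comparison, -0.18 to 0.064 (AZIN1) for AZD4547 with aFGF over aFGF, and -0.035 to 0.15 (SMS) and -0.080 to 0.12 (AZIN1) for aFGF over DMSO. ARG2 kept its call in the first 2 comparisons under all 17 alternatives, with log2 values of -1.48 to -0.99 and 1.12 to 1.67, the smallest with a pseudocount of 8.

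Groups share replicate numbers, but the labels give them no further meaning. Deviations of same-numbered arrays correlated at -0.07, 0.06 and 0.10 over the brighter probe sets, so the block is no test of pairing. With a replicate block 3302, 5161 and 1201 genes were called in the 3 comparisons, 3, 7 and 3 of the 9 genes and 7, 15 and 3 of their probe sets; ODC1 against DMSO was the added gene (limma adjusted p = 0.044). Counts over the 52 wider genes moved by at most 1.5 times in the 3 alternatives run for them (the mean of all probe sets, no dim genes and the replicate block).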
